A study of Mus musculus with 8 samples.

Results

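The genes described here are the splicing factors and heterogeneous nuclear ribonucleoproteins (hnRNPs) of the mouse brain cortex, measured after a high fat diet. They were taken by name as the protein-coding genes whose symbol begins with Srsf, Hnrnp, Sf3a, Sf3b or Snrp, which gave 52 of the 13996 genes in the expression values, or of the 12531 protein-coding ones. The 52 comprised 11 Srsf, 20 Hnrnp, 3 Sf3a, 6 Sf3b and 12 Snrp genes, and the rule uses no measured value, although it was set with earlier results of these data known. All mice were male C57BL/6 animals obtained at 8 weeks of age. The 4 normal mice then ate a conventional diet for 8 weeks, and the 4 high fat diet fed (HFD) mice ate a diet with 60% fat by weight for the same 8 weeks. The cortex of each was taken at 16 weeks, when the HFD mice were heavier and tolerated glucose less well. Each mouse gave 1 rRNA-depleted, stranded library that was sequenced from both ends. Levels are FPKM, in which the fragments of a gene are divided by its transcript length and by the size of the library, and the read counts under them are not known. A gene was called higher or lower when its limma p, two-sided and adjusted by Benjamini-Hochberg over 13982 genes, was below 0.05, and fold changes are on the log2(FPKM + 0.1) scale.

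Introns are cut out of nuclear transcripts by the spliceosome, whose small nuclear ribonucleoproteins (snRNPs) mostly hold a short RNA in a ring of Sm proteins, while that of U6 has a ring of Lsm proteins. The U1 snRNP reads the 5′ splice site, and the U2 snRNP, with its SF3A and SF3B complexes, reads the branch point. SR proteins mostly promote the use of an exon and hnRNPs often oppose it, and neurons splice an unusually large share of their exons in a regulated way.

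The cortex label was checked against marker genes first, because several lists moved with the diet. Markers of cortical projection neurons were detected in every mouse, and 6 of 8 were called higher in HFD mice, with a summed FPKM of 277.2 to 424.1 in normal mice and 469.7 to 554.6 in HFD mice. Markers of neighbouring regions were lower. The 7 striatal markers tested were all called lower, with sums of 190.1 to 356.9 against 52.5 to 61.6. Of 5 cerebellar markers tested 4 were called lower, and the sum of these 5 and the granule cell gene Gabra6, which was listed at 0 in HFD mouse 1 and not tested, was 20.0, 219.0, 296.1 and 83.0 in normal mice 1 to 4 against 13.5 to 19.2 in HFD mice. Thalamic markers were called lower in 3 of 7 cases, with sums of 63.5 to 219.5 against 43.5 to 52.2. The 3 were Prkcd, Zic1 and Calb2, and Calb2 is on the cerebellar list too, so these sums are not independent. All 3 were highest in normal mice 2 and 3, as was the cerebellar sum. Myelin markers were called lower in 8 of 8 cases with 2112.2 to 3484.6 against 1461.8 to 2029.7, and blood markers in 5 of 5 with 239.2 to 479.7 against 199.1 to 247.4. Choroid plexus markers were called lower in 3 of 6 with 345.7 to 733.3 against 23.0 to 949.7, the highest value being that of HFD mouse 4. Calls went both ways for oligodendrocyte precursors (2 higher and 2 lower of 6), astrocytes (2 and 2 of 8), interneurons (2 and 4 of 8) and endothelium (1 and 2 of 6), while 0 of 7 microglial markers were called by limma in either direction and 1 was higher at an unadjusted p below 0.05. The striatal sums did not overlap between the diets, so the regional makeup of the pieces and the diet cannot be told apart for the genes below. In bulk tissue fewer cells of a type and less RNA per cell cannot be told apart either.

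Most of the splicing factor mRNAs were not called, and those that were called were mostly lower in HFD mice. Of the 52 genes, 16 were called lower, 3 were called higher and 33 were not called, where 16.8% of the 12519 protein-coding genes tested were called lower and 16.5% higher. The 16 amounted to 30.8% of the members and the 3 to 5.77%. The fold change was below 0 for 41 of the 52 (78.8%), against 52.2% of protein-coding genes, and the median was -0.09 against -0.01 on the log2 scale. Only Snrpc and Snrpd1 were called lower with a change above 50% (a fold of over 1.5 in either direction), a mark passed downward by 3.04% of protein-coding genes. Upward 0 members passed it, since the largest increase was 1.42-fold, where 2.65% of protein-coding genes did. All 4 HFD mice lay below all 4 normal mice for 13 members, against 16.1% of protein-coding genes, and above them for 3, against 16.3%. All 52 genes passed the filter on low values, and their mean FPKM ran from 5.84 to 324, with a median of 29.4 against 11.2 for protein-coding genes.

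The counts were smaller when the normal mice rich in cerebellar markers were left out. Without normal mice 2 and 3 the lower calls were 9, all 9 among the 16, and the higher calls 0, while 9.41% and 10.1% of protein-coding genes were called. The 9 were Snrpc, Snrpd1, Snrpe, Snrpn, Hnrnph2, Hnrnpk, Hnrnpr, Srsf3 and Srsf9, and the median then was -0.05. With the cerebellar marker level of each mouse as a covariate 3 members were called lower (Snrpd1, Srsf9 and Hnrnph2) and 0 higher. The shares of protein-coding genes were 2.2% and 2.16%. With the striatal level 0 were called in either direction, as were 0.0% of protein-coding genes. Neither marker level overlapped between the diets, which limits both fits. Normal mouse 1 had a cerebellar sum of 20.0, close to the 19.2 of HFD mice 2 and 4, and its values are given with the others below. That mouse also had the highest striatal sum of all, 356.9 against 52.5 to 61.6 in HFD mice. Leaving out normal mouse 2 or HFD mouse 2 reduced the higher calls from 3 to 1. Past the mark of 1.5-fold, the lower calls became 1 in place of 2 without HFD mouse 2 (Snrpc at -0.55) or HFD mouse 3 (Snrpd1 at -0.55), and the higher calls became 1 without HFD mouse 1 (Sf3a2 at 0.61).

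The start regions of these genes were searched for letter patterns, which the choice by name did not use. RefSeq start windows of 300 bases, 250 before and 50 after the start on GRCm38.p6, were at hand for 46 of the 52 genes, in 63 windows, and were searched on both strands for 8 motifs. CCGGAAG, the core read by ETS family factors, occurred in 21 member windows (33.3%), in 16 genes, against 16.0% of the 12253 windows of tested protein-coding genes and 8.86% of all 32851 windows. The same letters were found in windows of genes called lower, called higher and not called, as the following stretches of 30 bases show. They are printed 5′ to 3′ on the gene's strand with the match in capitals (CTTCCGG where it lies on the opposite strand), for 4 genes called lower (Snrpc, Hnrnpf, Sf3a3, Sf3b6), 1 called higher (Sf3a2) and 1 not called (Sf3a1). The RefSeq starts differ from the outer gene bounds given below, so the stretches of Snrpc and Sf3a2 lie inside those bounds.
Snrpc (chr17:27840037-27840066, plus strand): tagggcagaggCCGGAAGcggaagtcctac
Hnrnpf (chr6:117900279-117900308, plus strand): ggggctgcacaCCGGAAGtccctgtgcttc
Sf3a3 (chr4:124714760-124714789, plus strand): cccccaagacaCTTCCGGgacacgcggaac
Sf3b6 (chr12:4817512-4817541, plus strand): tcgccccgcccCTTCCGGtccgcaatccgg
Sf3a2 (chr10:80798648-80798677, plus strand): cgcctttgctcCCGGAAGggatcgcttcgt
Sf3a1 (chr11:4160324-4160353, plus strand): tgcgaaacggcgagagggcgggaCCGGAAG

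ETS letters were found for 5 of the 15 genes called lower that had a window and 1 of the 2 called higher. Counted by gene in the same way, they were found for 16 of 46 members and 1806 of 9411 tested protein-coding genes. The other motifs differed less from the windows of tested protein-coding genes. GGGCGG, the Sp1 core, was in 68.3% of member windows against 62.8%, CCAAT in 44.4% against 37.1%, TATAAA in 11.1% against 6.91%, the E-box CACGTG in 11.1% against 9.74%, GCGCATGC of NRF1 in 4.76% against 5.11%, AAGATGGC of YY1 in 3.17% against 4.28% and TGACGTCA of CREB factors in 3.17% against 3.08%. Each motif was counted on its own, so matches can overlap. The median GC content of the windows was 61.0% in both sets.

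The Snrp genes, which encode snRNP proteins, held the largest decreases. Of 12, 5 were called lower (41.7%, beside 16.8% of protein-coding genes) and 0 higher by limma (0 also at an unadjusted p below 0.05). Snrpc encodes U1-C, which steadies the pairing of the U1 snRNP with the 5′ splice site, and lies at chr17:27838150-27851968. Its FPKM was 25.6, 24.9, 27.2 and 23.1 in normal mice 1 to 4 and 18.8, 13.1, 17.9 and 15.1 in HFD mice 1 to 4. Every HFD mouse was below every normal mouse, with a log2 fold change of -0.64 (SE 0.11, limma adjusted p = 0.00277). Snrpa, which encodes the A protein of the same particle, stood at 30.9 to 34.4 FPKM in normal mice and 32.3 to 34.3 in HFD mice, and its change was 0.02 with a 95% interval of -0.09 to 0.12.

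Sm core genes were called lower in 4 of 8 cases and higher in 0, also at an unadjusted p below 0.05. The shares of protein-coding genes were 16.8% lower and 16.5% higher. All 8 belong to the 12 Snrp genes, so these 4 calls are among the 5 already counted. Snrpd1, for the SmD1 protein, gave 39.2, 40.9, 40.8 and 38.7 FPKM in normal mice and 26.6, 28.9, 23.3 and 26.0 in HFD mice. The diets were far apart. The log2 fold change was -0.61 (SE 0.06, limma adjusted p = 0.000589), the smallest adjusted p of the 52 genes. Snrpe, for SmE, gave 32.9, 41.0, 32.0 and 38.5 FPKM against 23.5, 25.5, 28.1 and 30.6, with HFD mouse 4 just below the lowest normal mouse, and fell by 0.42 (SE 0.10, adjusted p = 0.0122). For Snrpd3, which encodes SmD3, the values were 23.2, 24.6, 24.8 and 23.1 against 18.3, 23.3, 19.2 and 19.1. HFD mouse 2 overlapped the normal mice, and the decrease of 0.26 (SE 0.07, limma adjusted p = 0.0236) was no longer called in 5 of the 8 fits that left out a mouse, those without normal mouse 2 or 3 or HFD mouse 1, 3 or 4.

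Snrpn encodes SmN, the form of the SmB protein made in brain from the paternally inherited allele, and had the highest level of all members. Its FPKM was 356.5, 347.5, 354.2 and 339.7 in normal mice and 302.0, 293.0, 311.1 and 287.3 in HFD mice. No HFD mouse reached the normal range, and the mean fell from 349 ± 7.55 to 298 ± 10.4 FPKM (SD, n = 4 each), a log2 fold change of -0.23 (SE 0.05, limma adjusted p = 0.00563). Its paralogue Snrpb, for SmB and SmB′, stayed within 47.0 to 50.9 FPKM in normal mice and 45.4 to 49.7 in HFD mice, a change of -0.02 with an interval of -0.12 to 0.08. Transcripts of the Snrpn locus went different ways. Snhg14, the long noncoding RNA that runs on downstream of Snrpn, was called higher at 0.50 (limma adjusted p = 0.00164), with 9.8 to 11.6 FPKM against 13.8 to 16.3. Snurf, which shares its transcript with Snrpn, ranged over 273.7 to 442.9 FPKM on the normal diet and 243.6 to 334.1 on the high fat diet, with a change of -0.38 that was not called (adjusted p = 0.0728). How fragments were divided between Snrpn and Snurf is uncertain, as 26.5% of the 50-base stretches of Snrpn transcripts also occur in other annotated genes, Snurf among them.

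The rest of the ring and of the U1 and U2 proteins was not called. Snrpd2, whose SmD2 product pairs with SmD1, had a change of 0.04 with an interval of -0.12 to 0.21. Snrpf and Snrpg, for SmF and SmG, had changes of -0.07 and -0.03, with intervals of -0.28 to 0.15 and -0.24 to 0.18, and 89.5% of the stretches of Snrpf are shared with other annotated genes. Snrpa1 and Snrpb2, for the A′ and B′′ proteins of the U2 snRNP, both stood at -0.09.

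**Figure D1:**
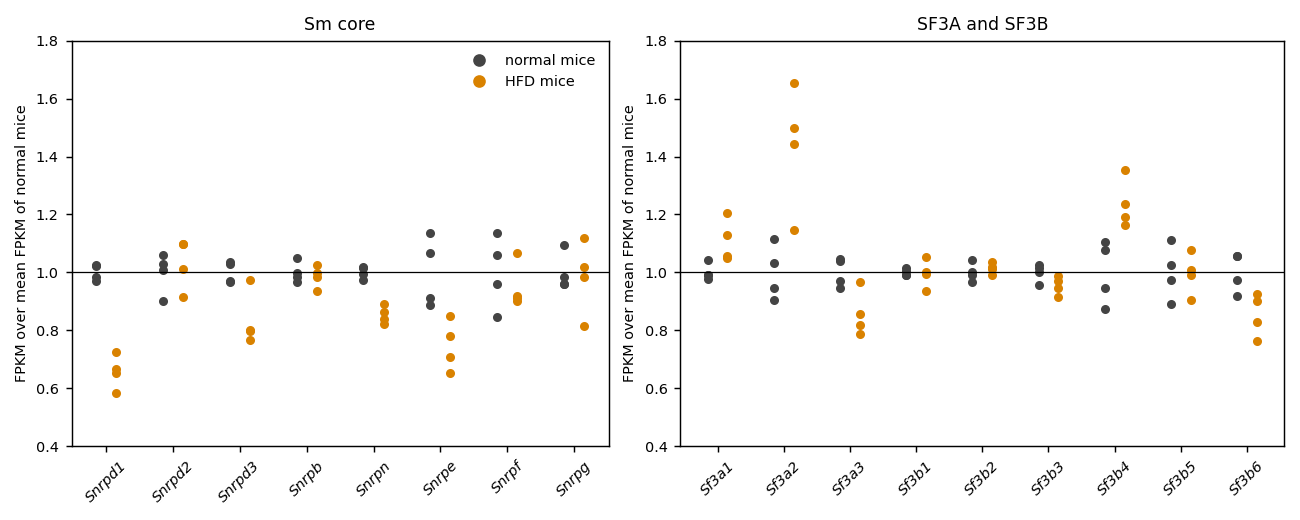
FPKM of each mouse divided by the mean FPKM of the 4 normal mice, for the Sm core genes (left) and the SF3A and SF3B genes (right); grey points are normal mice and orange points HFD mice. The 4 HFD mice lie below all normal mice for Snrpd1, Snrpn and Snrpe and above them for Sf3a1, Sf3a2 and Sf3b4, while Sf3b1 and Sf3b2 overlap.

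Partner genes of a complex stood in different proportions, which is given without a test. The FPKM ratio of Snrpd1 to Snrpd2 was 1.62 to 1.92 in normal mice and 0.903 to 1.34 in HFD mice, and that of Snrpc to Snrpa was 0.706 to 0.88 against 0.382 to 0.582. Snrpn over Snrpb went from a mean of 7.21 to 6.24, again without overlap. The ratios of Snrpd3 to Snrpb and of Snrpe to Snrpf and to Snrpg overlapped between the diets.

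The 9 genes of SF3A and SF3B, the U2 snRNP complexes that clasp the branch point, went both ways, with 2 called higher and 2 lower. These were 22.2% each, beside 16.5% and 16.8% of protein-coding genes. Sf3a2 (chr10:80798198-80804924), for a subunit of SF3A, gave 7.9, 6.7, 6.4 and 7.3 FPKM in normal mice and 8.1, 10.2, 11.7 and 10.6 in HFD mice. HFD mouse 1 was only just above normal mouse 1. The rise was 0.51 (SE 0.11, limma adjusted p = 0.00874), the largest increase among the members, and 0.40 with an adjusted p of 0.0696 without normal mice 2 and 3. Its partner Sf3a3 went down, from 18.5, 19.9, 19.8 and 18.0 FPKM to 18.4, 15.6, 15.0 and 16.3. HFD mouse 1 overlapped the normal mice, and the decrease of 0.22 (SE 0.07, limma adjusted p = 0.0333) was lost when normal mouse 2 or 3 or HFD mouse 2, 3 or 4 was left out. Sf3a1, for the largest subunit of the complex, was 13.6 to 14.5 FPKM in normal mice and 14.6 to 16.8 in HFD mice, apart but not called (0.15, adjusted p = 0.073).

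Of the SF3B genes, Sf3b4 (chr3:96172332-96177564), whose RNA-binding product contacts the intron near the branch point, was called higher. Its FPKM was 7.4, 6.5, 6.0 and 7.6 in normal mice and 8.0, 8.5, 9.3 and 8.2 in HFD mice. The lowest HFD mouse was just above the highest normal mouse, and the rise of 0.31 (SE 0.09, limma adjusted p = 0.0245) was lost without normal mouse 2 or 3 or HFD mouse 2 or 3. This gene is uncertain too, since 51.2% of its 50-base stretches recur in other annotated genes. Sf3b6, for the p14 protein that touches the branch point itself, was called lower and is named after its value was seen, with 22.0, 25.3, 25.3 and 23.3 FPKM against 19.9, 18.3, 21.6 and 22.2. Its decrease was 0.23 (SE 0.07, limma adjusted p = 0.0386), HFD mouse 4 overlapped normal mouse 1, and the call was lost without normal mouse 2, 3 or 4 or HFD mouse 1 or 2. The large scaffold subunits were not called, with intervals on both sides of 0. Sf3b1, which closes around the branch point, changed by -0.01 with an interval of -0.11 to 0.09, and Sf3b2, the most abundant of the 9 per length, by 0.02 with an interval of -0.07 to 0.11. Sf3b3 and Sf3b5 were not called either. Of these 9 genes 3 separated the diets with the HFD mice higher and 0 with them lower, beside 16.3% and 16.1% of protein-coding genes.

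The ratio of Sf3a2 to Sf3a3 was 0.323 to 0.427 in normal mice and 0.44 to 0.78 in HFD mice, and that of Sf3b4 to Sf3b6 was 0.237 to 0.336 against 0.369 to 0.464. Both sets were apart, without a test. These counts also changed when a mouse was left out. Both called Sf3a genes became 1 without normal mouse 2 or 3 or HFD mouse 2, 3 or 4, and both called Sf3b genes became 0 without normal mouse 2 or 3 or HFD mouse 2, and 1 without normal mouse 4 or HFD mouse 1 or 3.

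Among the 20 hnRNP genes 6 were called lower and 1 higher, beside 16.8% and 16.5% of protein-coding genes. The median change was -0.15, against -0.01 for protein-coding genes. Hnrnph2 (chrX:134601179-134607060) encodes an hnRNP that binds runs of G. It gave 67.3, 64.6, 66.5 and 69.4 FPKM in normal mice and 53.0, 56.7, 52.9 and 55.6 in HFD mice, which were well apart, and fell by 0.30 (SE 0.04, limma adjusted p = 0.00148). Hnrnpf, a relative of the same binding habit, gave 16.5, 20.8, 18.9 and 17.0 FPKM against 14.2, 15.7, 14.9 and 14.8. Normal mice 2 and 3, rich in cerebellar markers, were the highest, and the decrease of 0.29 (SE 0.08, adjusted p = 0.017) became 0.17 without them (adjusted p = 0.081). Shared sequence makes this gene uncertain, since 66.3% of its 50-base stretches recur in other annotated genes. Hnrnph1, the third of this trio, was not called at -0.16 (adjusted p = 0.0674).

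Another 4 hnRNP genes that fell lie outside the naming rule and were named after their values were seen. Hnrnpk (chr13:58391142-58403343), whose product binds runs of C, gave 119.1, 126.9, 119.8 and 120.2 FPKM in normal mice and 105.6, 106.2, 102.0 and 107.1 in HFD mice. The groups were clearly apart, and the change was -0.21 (SE 0.04, limma adjusted p = 0.00491). Hnrnpc, whose tetramer grips U-rich tracts, gave 74.9, 82.5, 81.0 and 80.9 against 70.2, 72.8, 62.0 and 67.9, apart, with a change of -0.23 (adjusted p = 0.0148). Hnrnpr, found with mRNA in axons, was 31.4 to 33.3 FPKM in normal mice and 25.8 to 29.8 in HFD mice, at -0.21 (limma adjusted p = 0.0133). Hnrnpab was 43.3 to 49.4 against 39.6 to 42.4 FPKM, at -0.16 (limma adjusted p = 0.0394), a call kept in just 1 of the 8 fits that left out a mouse, that without normal mouse 1.

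Hnrnpul1, an hnRNP U relative with a part in DNA repair, was the hnRNP gene called higher. It gave 29.4, 28.6, 31.7 and 30.5 FPKM in normal mice and 33.0, 33.4, 35.4 and 31.7 in HFD mice, so HFD mouse 4 tied with normal mouse 3. The rise of 0.15 (SE 0.05, limma adjusted p = 0.0448) was kept only without normal mouse 3 or HFD mouse 4. Hnrnpa1 and Hnrnpa2b1, which often repress the use of an exon, were not called. Hnrnpa1 was 91.7 to 106.4 FPKM in normal mice and 93.0 to 97.7 in HFD mice, a change of -0.01 with an interval of -0.13 to 0.11. Hnrnpa2b1, the most abundant hnRNP gene per length, gave 115.0, 127.2, 144.2 and 114.1 against 103.8, 119.6, 103.3 and 99.4, and changed by -0.23 (adjusted p = 0.0637). Normal mouse 3 was again the highest. The remaining hnRNP genes were not called and lay between -0.16 (Hnrnpm and Hnrnph3) and 0.10 (Hnrnpl).

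**Figure D2:**
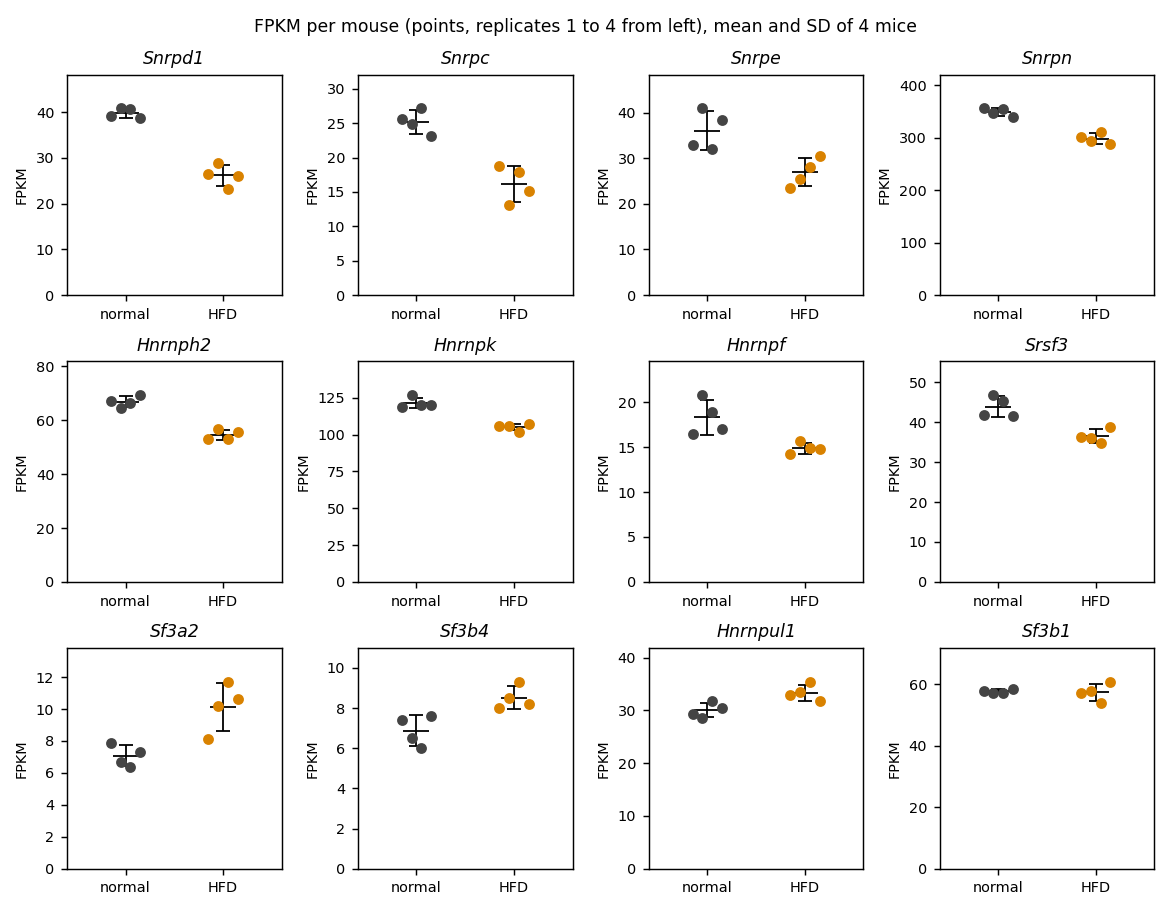
FPKM of 12 members in each mouse, normal mice in grey and HFD mice in orange, replicates 1 to 4 from left to right, with the mean and SD of 4 mice in black; each vertical axis starts at 0. For Snrpd1 the HFD mice are at 23.3 to 28.9 and the normal mice at 38.7 to 40.9, while for Sf3b1 the ranges overlap.

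Among the 11 SR protein genes 3 were called lower (27.3%, beside 16.8% of protein-coding genes) and 0 higher by limma, also 0 at an unadjusted p below 0.05. Srsf3 (chr17:29032628-29043373), whose small product also takes part in mRNA export, gave 41.9, 46.8, 45.4 and 41.5 FPKM in normal mice and 36.4, 36.1, 34.7 and 38.9 in HFD mice. All HFD mice were below all normal mice, with normal mice 2 and 3 highest, and the change was -0.26 (SE 0.06, limma adjusted p = 0.00681). Srsf10, whose product turns into a splicing repressor once dephosphorylated, gave 25.3, 29.6, 25.4 and 24.2 against 22.1, 23.0, 21.0 and 22.6. The groups were apart, and the decrease of 0.23 (SE 0.07, adjusted p = 0.0241) was lost without HFD mouse 1 or 3. Srsf9, named after its value was seen, gave 21.1, 18.9, 17.5 and 18.3 against 16.1, 15.9, 16.9 and 17.1. Normal mouse 1 was the highest there, and the decrease of 0.20 (SE 0.06, limma adjusted p = 0.0379) was kept only without normal mouse 3 or 4. Without HFD mouse 1 the called SR genes were 1 in place of 3.

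Srsf5 and Srsf2 were not called. Srsf5 had the highest level per length of the 11, with 125.5 to 138.4 FPKM in normal mice and 130.8 to 135.4 in HFD mice, and changed by -0.02 with an interval of -0.11 to 0.08. Srsf2, for the SC35 protein that marks nuclear speckles, changed by 0.04 with an interval of -0.08 to 0.16. Srsf12 and Srsf4 had the highest fold changes of the family, both 0.16 and not called.

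Adding up a family gives its mRNA level as a whole, with no test. Snrp genes summed to 612.8 to 628.5 FPKM in normal mice and 524.7 to 547.8 in HFD mice, a difference of -14.2%, and of -13.7% without Snrpn. The hnRNP sum was 1000.1 to 1099.6 against 934.0 to 998.0 (-8.72%), in which HFD mouse 2 came close to normal mouse 1. SR genes summed to 431.5 to 448.4 against 413.0 to 423.6 (-4.28%) and the Sf3a genes to 38.9 to 41.1 against 41.2 to 43.5 (4.68%), while the Sf3b sums overlapped. For all 52 the sum was 2285.9 to 2404.8 against 2120.0 to 2170.6 FPKM (-8.5%). As a share of the summed FPKM of each mouse, the diets overlapped, with 0.36% to 0.393% in normal mice and 0.334% to 0.386% in HFD mice.

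The lists of other splicing genes were read in the same way. Of 182 other genes on the splicing lists, 32 were called higher and 41 lower, with a median change of -0.00. These were 17.6% and 22.5%, beside 16.5% and 16.8% of protein-coding genes, although 7 of the 182 were genes for long noncoding RNAs. No list was tested against the other genes. Of 8 Lsm genes, Lsm1 to Lsm8, 2 were lower (25.0%) and 0 higher (0 also at an unadjusted p below 0.05). Lsm5, of the ring on the U6 snRNA, fell by 0.43 (limma adjusted p = 0.0162). Catalytic step factors and helicases were lower in 7 (28.0%) and higher in 1 of 25 cases, and Prpf38b had the largest change at -0.39 (adjusted p = 0.0218), lost without normal mouse 2 or HFD mouse 1 or 4. Among the U4/U6.U5 tri-snRNP and minor spliceosome genes 4 of 21 were lower (19.0%, close to the background) and 2 higher, with Snrnp35 of the minor spliceosome at -0.42 (limma adjusted p = 0.0163).

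Exon junction and nonsense-mediated decay (NMD) genes were lower in 4 (25.0%) and higher in 1 of 16 cases, with the junction subunit Magoh at -0.42 (limma adjusted p = 0.00964). For snRNP assembly the count was 2 lower (14.3%, under the background) and 1 higher of 14, with Gemin5, which picks out snRNAs for the SMN complex, at 0.27 (adjusted p = 0.0127). U2AF and branch point factors gave 2 lower (22.2%) and 1 higher of 9, and Sf1, which binds the branch point before the U2 snRNP does, rose by 0.41 (limma adjusted p = 0.00515) from 18.9 to 22.6 FPKM in normal mice to 24.6 to 30.1 in HFD mice. Phf5a, the SF3B subunit with another kind of name, was lower at -0.17 (adjusted p = 0.0303) and made the SF3A and SF3B list 2 higher and 3 lower of 10. That call was kept only without normal mouse 2 or HFD mouse 2. On the U1 and U2 protein list Snrpc was the 1 gene called of 5 (20.0% lower), and 0 were higher, also at an unadjusted p below 0.05.

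Neuronal and tissue-specific regulators were higher in 10 (35.7%) and lower in 4 (14.3%) of 28 cases. Nova2, a neuronal factor for YCAY motifs, rose by 0.94 (limma adjusted p = 0.00146), from 3.4, 2.6, 2.9 and 4.3 FPKM to 6.1, 6.5, 6.4 and 6.3, with all HFD mice above. SR-related genes were higher in 6 (40.0%) and lower in 4 (26.7%) of 15, and Srrm4, the activator of neuronal microexons, rose by 0.57 (limma adjusted p = 0.00304) from 2.9 to 3.9 FPKM up to 4.7 to 5.3. Of 10 SR protein kinase genes 1 was higher, a share under the background, Dyrk1b at 0.44 (adjusted p = 0.00137), and 0 were lower by limma, against 1 at an unadjusted p below 0.05. Genes for nuclear long noncoding RNAs were higher in 4 of 7 cases (57.1%) and lower in 0, also at an unadjusted p below 0.05, with Miat at 0.69 (limma adjusted p = 0.00215). The background shares are those of protein-coding genes, a different class from this list. RNA-binding proteins like the hnRNPs but with other names were lower in 11 (40.7%) and higher in 5 (18.5%) of 27, and Ybx1, a cold-shock domain protein, fell by 0.44 (limma adjusted p = 0.000489).

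**Figure D3:**
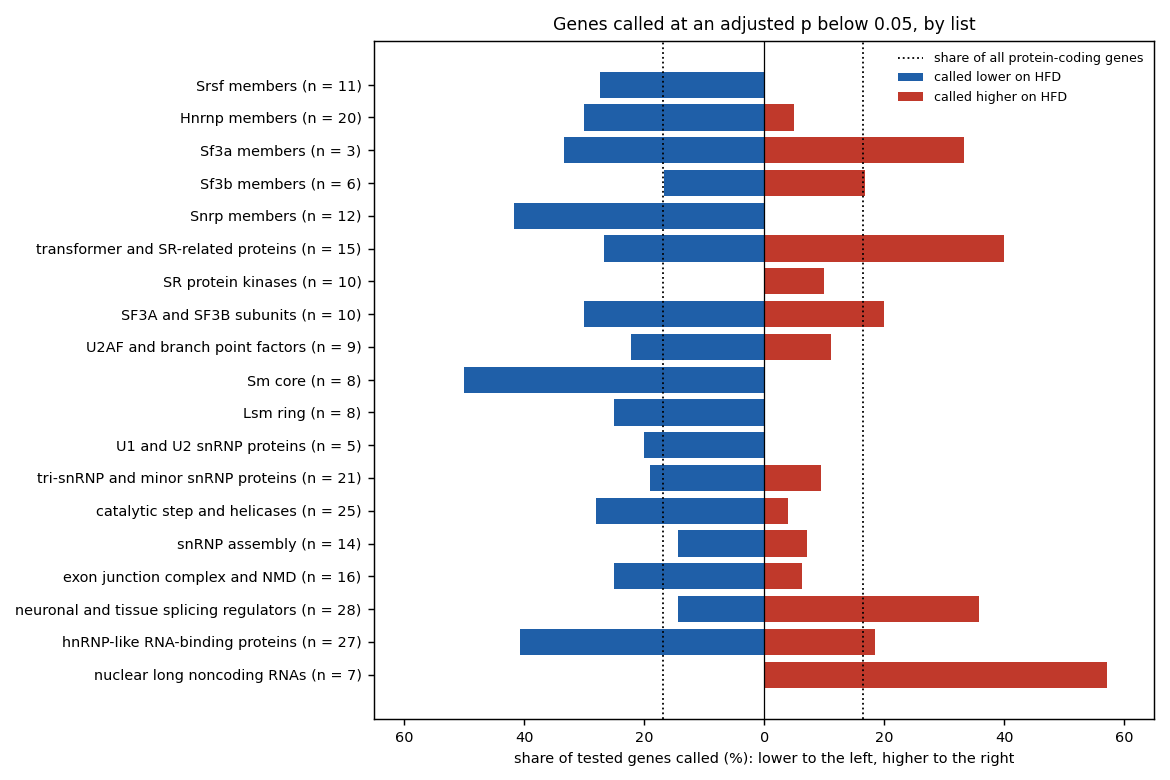
Share of the tested genes of each family and splicing list that was called lower (blue, to the left) or higher (red, to the right) in HFD mice, with the number tested beside each name; dotted lines mark the shares of all protein-coding genes, 16.8% lower and 16.5% higher. The Snrp genes reach 41.7% lower and 0.0% higher, and the neuronal regulators 14.3% lower and 35.7% higher.

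GC content and length of the transcripts moved with these results, and their part in them was not tested beyond the correction given below. In the quintile of protein-coding genes with the lowest GC content 28.6% were called lower and 6.11% higher, with a median change of -0.10, and in the highest quintile 7.51% and 29.6%, with a median of 0.11. Members were GC-poor, with a median of 45.7% against 50.8%, and 23 of the 52, 9 of them called lower, belonged to the lowest quintile. The median GC content was 44.6% for the members called lower and 56.2% for those called higher. Short transcripts leaned down as well, with 22.5% lower and 6.59% higher in the shortest quintile, and the members were short (a median of 2102 bases against 2786). After a correction for both properties 11 members were called lower, all 11 among the 16, and 3 higher, Sf3a2, Sf3b4 and, in place of Hnrnpul1, Srsf12, beside 15.4% and 13.1% of protein-coding genes. Snrpc, at 54.1% GC, lay on the GC-rich side and had the largest decrease, and its transcripts were short, with a median of 933 bases. Snrpd1 and Snrpe, with the next largest decreases, were both short (670 and 550 bases) and GC-poor (43.3% and 42.3%). These genes belonged to the shortest quintile, which ended at 1574 bases and held 13 members, 5 of them called lower and 1 higher.

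**Figure D4:**
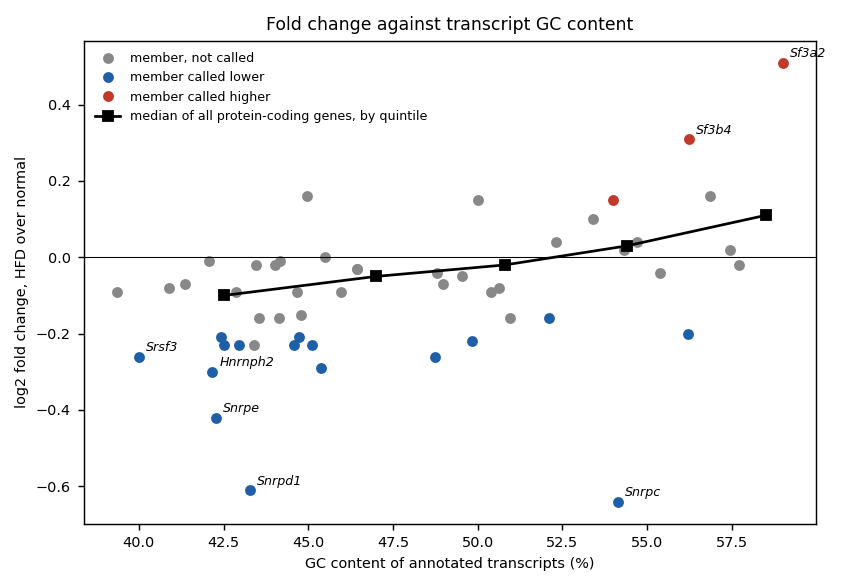
Log2 fold change of each member against the GC content of its annotated transcripts, with members called lower in blue, called higher in red and not called in grey; black squares are medians of all protein-coding genes in quintiles of GC content. The squares rise from -0.10 to 0.11, the 3 genes called higher lie at 54.0% to 59.0% GC, and Snrpc and Snrpd1 lie far below the line.

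Many of the genes carry transcripts annotated as targets of NMD, and the splicing event behind each was not examined. Such a transcript is annotated for 24 of the 52 members (46.2%) against 28.2% of protein-coding genes, and for 9 of 11 SR genes (81.8%), 10 of 20 hnRNP genes and 0 of 3 Sf3a genes. A retained intron is annotated for 73.1% of members against 58.3%. Of the 24 genes with an NMD transcript 5 were called lower and 0 higher, and of the 28 others 11 lower and 3 higher. Of all protein-coding genes tested 16.8% were called lower and 16.5% higher. The sets with and without such a transcript differ in family, and the split was not tested. As the values are 1 per gene, the share of each isoform was not analysed here. Called genes were found among those with little and with much shared sequence. With under 10% of their 50-base stretches in other genes 8 of 32 members were lower and 1 higher, and with 10% or more 8 of 20 and 2. This split was not tested either. Beside the genes already given, the share was 31.5% for Srsf3, 29.6% for Hnrnpk, 46.7% for Hnrnpa1 and 65.4% for Srsf4.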

How the data were processed

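Each of the 4 normal and 4 HFD mice gave a cortex library. FPKM were computed by the authors with Cuffnorm (GENCODE M17, GRCm38.p6) from reads trimmed by Trimmomatic and aligned to mm10 by STAR, with versions not given in the sources used here. Deposited FPKM are rounded to 0.1 and already scaled by depth and length, hence depths are unknown and counting intervals cannot be given. Sums of FPKM per mouse were 562431 to 639142. The second quantification with Salmon and edgeR was not used here.

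Groups came from the labels. The members, the 15 splicing lists and the 12 marker lists were chosen with earlier results of these data known. Listed genes not analysed here included Drd1, Pcp2, Barhl1, Gbx2, Malat1, Mbnl3, Esrp1, Esrp2 and Nhp2l1. From the FPKM values, log2(FPKM + 0.1) was compared between the diets by a two-sided test in limma (version 3.58.1, R 4.3.3) whose variance prior followed the mean level. Genes entered if their mean reached 1 FPKM and no mouse was at 0, which held for 13982, and p-values were adjusted by Benjamini-Hochberg over them. No other tool was run for calls. The added constant understates changes of genes with low values. Calls need an adjusted p below 0.05, and a change above 50% was counted as well.

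Named by rule were the 8 largest called changes each way, the most abundant and the most changed member of each family, the paralogues Snrpb, Snrpn, Hnrnpa1, Hnrnpa2b1, Srsf2, Srsf3, Sf3b1 and Sf3a1, and the most changed called gene of each other list. Genes were annotated with GENCODE M21 on GRCm38 (lengths and GC content for 13963 of 13982 genes tested), later than the M17 of the authors, and start windows came from RefSeq. Alternatives were added constants of 0.5 and 1, no filter or a mean of at least 5 FPKM, median-ratio and quantile scaling, a variance prior without trend, a block for the replicate number, marker covariates and each mouse left out. Added after seeing the data were GC and length corrections (loess per mouse, span 0.5) and a fit without normal mice 2 and 3. Python 3.11.15 with pandas 2.3.3 and numpy 2.4.6 made the tables, and matplotlib 3.10.9 drew the figures.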

Additional observations from a re-analysis of the deposited data

Results flagged for a closer look

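In 11 of 104 groups of 4 mice, each member in each diet, the highest or lowest mouse stood apart from the other 3 by more than Dixon's 95% critical value for the gap over the range (10.6%, where chance gives about 1 in 20). In normal mice these were Hnrnpa0, 26.4 FPKM in mouse 3 against 21.1 to 22.0, Hnrnpk, 126.9 in mouse 2 against 119.1 to 120.2, Snrpa1, 14.9 in mouse 3 against 11.8 to 12.2, and Snrpg, 9.8 in mouse 4 against 8.6 to 8.8. In HFD mice, mouse 3 was low for Hnrnpll at 13.8 FPKM against 15.5 to 15.6, for Srsf1 at 52.6 against 59.3 to 60.1 and for Srsf12 at 5.5 against 6.7 to 6.9, and high for Snrpf at 12.9 against 10.9 to 11.1. Mouse 2 was high for Hnrnpu at 59.1 against 53.8 to 54.3 and low for Snrpa1 at 10.4 against 12.3 to 12.5, and mouse 4 was low for Srsf2 at 40.1 against 42.3 to 42.7. Hnrnpk was the 1 called member among them, and it was called in all 8 fits that left out a mouse.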

How the results depend on the processing

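The 3 higher and 16 lower calls were the same number with added constants of 0.5 or 1, without a filter, with a mean of at least 5 FPKM and after quantile normalization, and 2 and 16 after median-ratio rescaling. Depth is unknown, so small FPKM values carry an unknown counting error. Leaving out a mouse gave 1 to 3 higher and 11 to 17 lower calls, 1 to 2 lower and 0 to 1 higher with a change above 50%, and 1 to 3 Srsf, 1 to 2 Sf3a and 0 to 2 Sf3b calls. Of the 19 called members 11 stayed past the threshold in all 8 such fits. Genes near 0 turned sign there, with log2 fold changes of -0.05 to 0.00 for Srsf5, -0.03 to 0.04 for Hnrnpa1, -0.04 to 0.00 for Snrpb and -0.03 to 0.02 for Sf3b1.

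Without the variance trend 2 members were called higher and 12 lower, with 1 Sf3a and 1 Sf3b gene among them. The replicate numbers did not pair the mice, as same-numbered mice correlated at -0.0382, -0.0275, -0.109 and -0.0717, and with the replicate block 1 member was higher and 12 lower, with 1 Sf3a and 0 Sf3b calls.

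With the cerebellar covariate 0 members were higher, 3 lower and 0 lower with a change above 50%. By family 1 Srsf, 1 Hnrnp, 0 Sf3a, 0 Sf3b and 1 Snrp gene were called, with 9 higher and 3 lower among other splicing genes and 1 higher and 10 lower among markers. Hnrnpa1 was then at 0.09. With the striatal covariate every one of these counts was 0, and log2 fold changes that turned sign were 0.10 for Srsf10, -0.14 for Hnrnpul1, 0.03 for Srsf5, 0.09 for Sf3a3, -0.22 for Sf3b2, -0.51 for Srrm4, -0.07 for Sf1, -0.12 for Nova2, 0.09 for Hnrnpa1, -0.18 for Srsf2, 0.06 for Sf3b1 and 0.30 for Srsf9. The striatal level separates the diets completely, which leaves that fit little to estimate the diet from. The cerebellar level did not overlap either, at 0.823 to 5 in normal mice against -0.111 to 0.474 in HFD mice, so its fit has a like limit.

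The GC correction, the length correction and both together each left 1 gene lower with a change above 50%. The called Sf3b genes were 0, 1 and 1, and the Sf3a genes 1 with both. Signs turned for Srsf5 (0.04, 0.01 and 0.03), Hnrnpa1 (0.05, 0.01 and 0.05), Sf3b2 (-0.00 with GC and -0.03 with both), Sf3b1 (0.04 with GC) and Snrpb (0.01 with length). With both and the replicate block 1 member was higher and 7 lower, 1 with a change above 50%, from 1 Srsf, 3 Hnrnp, 1 Sf3a, 0 Sf3b and 3 Snrp genes, with 19 other splicing genes lower and 8 markers higher, and Srsf5 at 0.03, Sf3b2 at -0.03 and Hnrnpa1 at 0.05. Without normal mice 2 and 3, 0 members were higher, 9 lower and 1 lower with a change above 50%, from 3 Hnrnp, 0 Sf3a and 0 Sf3b genes beside the others, with 20 other splicing genes and 24 markers lower and Hnrnpa1 at 0.05. The causes were not tested.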
